A study of Macaca mulatta with 32 samples.

Results

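Circular RNAs (circRNAs) from 10 genes of the presynaptic active zone and its vesicle release machinery were followed in the rhesus macaque brain. The genes were RIMS1, RIMS2, ERC1, ERC2, PPFIA2 and PCLO, which encode scaffold proteins, UNC13C and CADPS, which encode vesicle priming factors, and SYT1 and MCTP1, which encode calcium-binding proteins. The genes were chosen with earlier results of these data known. All circRNAs of the deposited table that carried one of these symbols were taken, with no condition on their level. This gave 241 of 52828 circRNAs, from 9 of the 10 genes. The libraries came from 8 healthy animals, for which the labels name no treatment, with the RNA of 2 animals of the same sex and age mixed in each pool. The pools are named by age in years and sex, as 10F, 10M, 20F and 20M. Each of the 4 pools was sampled in 5 areas of cortex (PFC, prefrontal; TC, temporal; PC, parietal; OC, occipital; PCC, posterior cingulate), 2 parts of the hippocampus (CA1, and DG for the dentate gyrus) and the cerebellar cortex (CB), giving 32 libraries. A region was therefore represented by 4 pools of 2 animals, and single animals could not be told apart. The RNA had been depleted of ribosomal RNA and digested with RNase R, which degrades linear RNA.

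A circRNA arises when the end of a downstream exon is joined back to the start of an upstream exon, and reads across this back-splice junction report it. Such circles are abundant in brain and often come from long neuronal genes. The active zone is the stretch of presynaptic membrane where synaptic vesicles dock, are primed and fuse when calcium enters. RIM proteins (RIMS1, RIMS2) bind the vesicle protein Rab3, calcium channels and Munc13, ERC proteins (ERC1 or ELKS, ERC2 or CAST) and liprin-α2 (PPFIA2) hold the scaffold together, and Piccolo (PCLO) is a very large scaffold protein. Munc13-3 (UNC13C) and CAPS1 (CADPS) prime vesicles for fusion, synaptotagmin-1 (SYT1) is the calcium sensor of fast release, and MCTP1 is a membrane-anchored protein with calcium-binding C2 domains.

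The study designed divergent primer pairs, which amplify only across a back-splice junction, for circRNAs of several of these genes. Those of 5 members are given. They belong to the most-read circles of PPFIA2 and SYT1, but to less-read circles of RIMS1, MCTP1 and ERC1. The study picked these circRNAs on these samples, as enriched in CB (RIMS1, MCTP1), DG (PPFIA2), CA1 (ERC1) or at 10 years (SYT1), so their direction here is not independent evidence. By a second assay, quantitative PCR (RT-qPCR), the study also reports a PPFIA2 circRNA as higher in DG and a SYT1 circRNA as specific to the younger age. Those PCR measurements were not examined here. The forward primer stands first and the reverse primer second, both 5′ to 3′.
RIMS1 chr4:68575807-68582219 forward: tcagtgatgtgtccgccatt
RIMS1 chr4:68575807-68582219 reverse: ctgtcttgttcgctcctcca
MCTP1 chr6:91133100-91155536 forward: ggcatcagaagtacaagagcaa
MCTP1 chr6:91133100-91155536 reverse: gattcagggagcagtttcaaca
PPFIA2 chr11:78405303-78425565 forward: gcgactgagggtttctttag
PPFIA2 chr11:78405303-78425565 reverse: gagttcagagatttcttcttcc
ERC1 chr11:1141773-1191816 forward: agaaatcttgaaggaggtggaa
ERC1 chr11:1141773-1191816 reverse: tatcctgaatctgcttcgtctt
SYT1 chr11:76309507-76323514 forward: gtaactgaggaatggcgtgac
SYT1 chr11:76309507-76323514 reverse: aagcagcaggtcaggactaa
Positions are those of the deposited table, whose genome build is not given in the sources used here.

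The members held 90512 of 7159279 back-splice reads, or 1.26% of all. RIMS1 had 56 circRNAs, RIMS2 43, PPFIA2 33, MCTP1 32, ERC1 26, ERC2 17, UNC13C 14, SYT1 11 and PCLO 9. The median was 26 circRNAs per gene against 3 for all host genes of the table. The annotation placed 190 of the 241 in exons and 51 in introns, and the median exonic circRNA spanned 31675 bases of genome against 6193 for all exonic circRNAs of host genes. RIMS1 alone held 60180 reads, RIMS2 7648, ERC1 7575, ERC2 6066, PCLO 3107, PPFIA2 2993, MCTP1 2215, UNC13C 380 and SYT1 348. Of the 241, 120 were found in a single library and 23 were found in all 8 regions. None was found in all 32 libraries, and 97 passed the filter used for the tests, which took a library with 3 or more reads as expressing and asked for 2 such libraries in each of 2 regions, or in 1 region with 6 over the whole series, or else for 30 reads in total. No circRNA carried the symbol CADPS. The gene ID that is paired with CADPS (ENSMMUG00000031902) had 2 circRNAs, which are described separately.

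The table gave levels in a unit called TPM. In each library all values were multiples of what a single junction read is worth, so length does not enter. A level here counts junction reads, scaled per library. The libraries did not share a common total, which ran from 107695 TPM in DG_20F to 352188 TPM in CB_10F. The same TPM is therefore not the same share of reads in every library. Depth was lowest in CB_10F, with 18813 reads (18.7 TPM per read), and highest in PCC_20F, with 894932. Between 19 and 71 member circRNAs were found per library. The regions were checked by marker genes. The summed circRNAs of 5 cerebellar granule cell genes (of 12 listed) were at 64.1 to 189 TPM in CB and 0 to 33.02 TPM elsewhere, mostly from GRM4, at a mean of 124 TPM in CB and 3.41 TPM elsewhere, while GABRA6, FAT2 and PAX6 averaged 5.33, 3.30 and 3.72 TPM in CB and ZIC1 was at 0. Those of 5 Purkinje cell genes (of 8 listed) overlapped, at 61.6 to 112 TPM in CB and 0 to 110 TPM elsewhere, and RORA was at 0 in CB. Those of 6 forebrain excitatory neuron genes (of 11 listed) were at 0 to 31.6 TPM in CB and 28.8 to 581 TPM elsewhere. None of the 4 dentate granule cell genes listed had a circRNA, so the label DG could not be checked this way.

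The levels of the circRNAs of each gene were summed per library to ask where in the brain the circRNA output of the gene is high or low, and each region was compared with the other 28 libraries. In CB, 2 of the 9 genes were higher, RIMS1 and MCTP1, and ERC2 was lower. In DG, PPFIA2 was higher and RIMS2 was lower. The 9 genes showed different orders of regions, and most neighbouring regions in each order lay within the spread of their libraries. Calls are by limma on log2(TPM + 2.455) with a Benjamini-Hochberg adjusted p under 0.05 over all 4902 host genes, and of these 2.92% were higher and 2.61% lower in CB, and 0.184% higher and 0.796% lower in DG. In whole-tissue RNA, fewer cells of a type and less RNA per cell cannot be told apart.

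**Figure D1:**
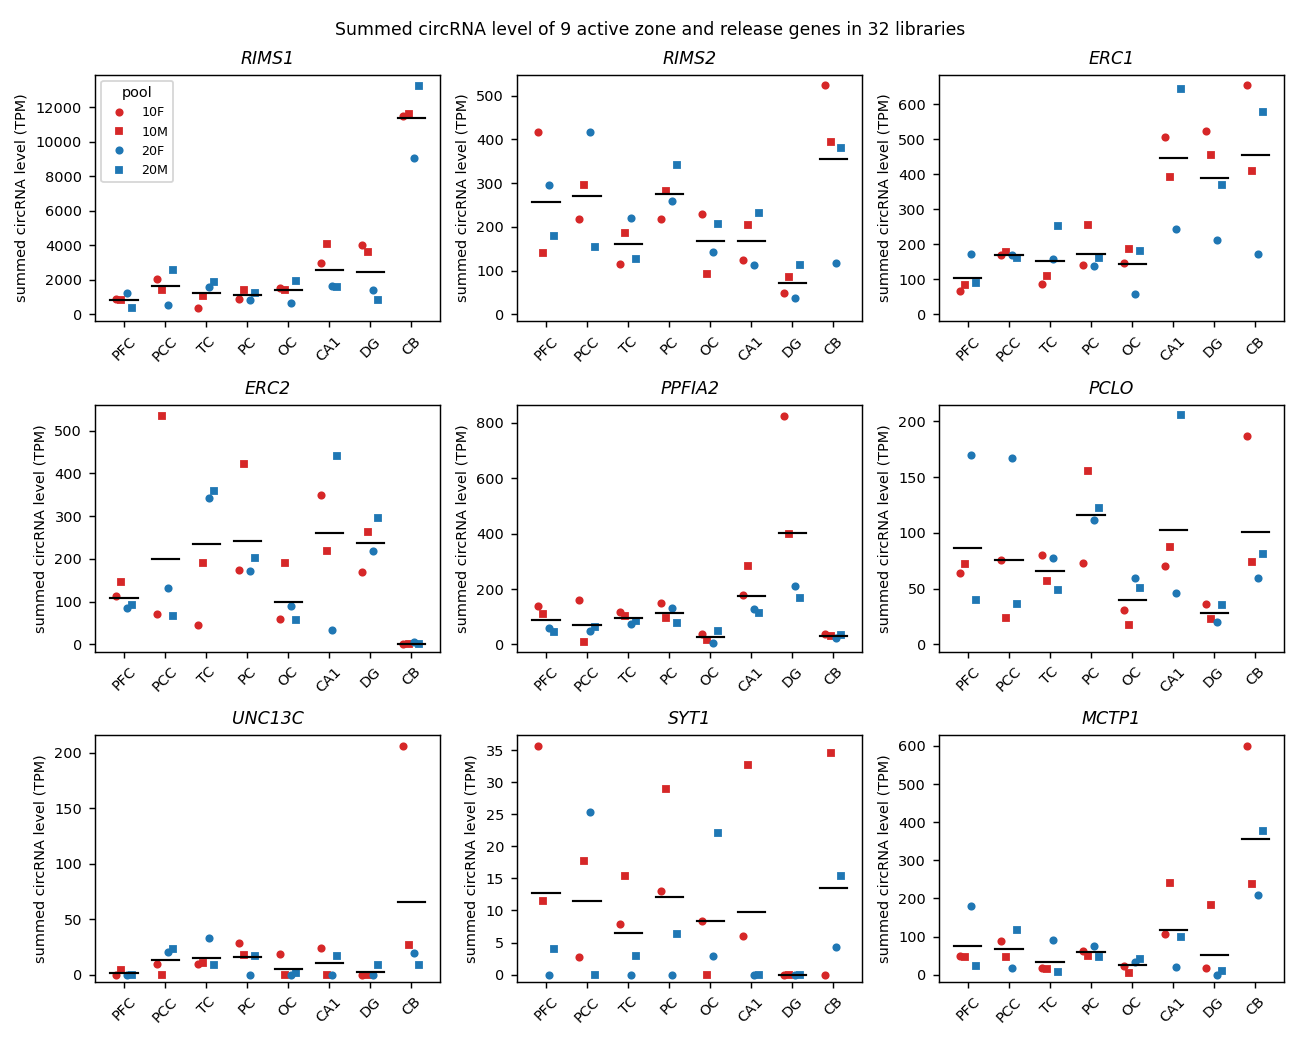
Summed circRNA level (TPM, linear axes) of the 9 genes in each of the 32 libraries, by region. Red marks 10 y, blue 20 y, circles females and squares males, and the line is the mean of 4 libraries. The 4 CB libraries sit at 9043 to 13248 TPM for RIMS1, above every other library, and at 0 to 5.43 TPM for ERC2, below every other library.

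RIMS1 circRNAs were at 11513 TPM in CB_10F, 11584 in CB_10M, 9043 in CB_20F and 13248 in CB_20M. The other 28 libraries lay between 383 and 4060 TPM, so the groups did not overlap. RIMS1 averaged 11347 ± 1732 TPM (SD, n = 4) there and 1598 ± 1007 TPM (SD, n = 28) outside CB, a ratio of 7.10. The log2 difference was 3.07 ± 0.46 (SE, limma adjusted p = 2.65e-05), and the exact two-sided permutation test over the choices of 4 libraries gave p = 2.78e-05, the smallest it can give. This test ignored that each region holds 1 library of each pool. Keeping the pools paired would leave fewer choices and a larger smallest p. RIMS1 made up 4.40% ± 0.831 (SD, n = 4) of all back-splice reads in CB and 0.723% ± 0.3998 (SD, n = 28) elsewhere. CA1 followed at 2555 ± 1190 TPM and DG at 2466 ± 1574 TPM. From CA1 down to PFC at 832 ± 352 TPM, no step between neighbouring regions exceeded the larger SD of the pair.

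RIMS2, the second RIM gene, was also highest in CB, but not past the threshold. Its circRNAs summed to 354 ± 170 TPM in CB and 196 ± 98.6 TPM elsewhere, with a log2 difference of 0.86 ± 0.41 (SE, limma adjusted p = 0.289, and 0.0367 without the 20F pool). The difference between the RIM genes was not tested. DG was the lowest region, with 48.1 TPM in DG_10F, 86.4 in DG_10M, 37.0 in DG_20F and 113 in DG_20M. The other 28 libraries ranged from 91.1 to 524 TPM, so that DG_20M overlapped them. These DG levels rested on 8, 19, 18 and 129 reads. A circle with under 2 reads in a library is listed as 0, and DG had the lowest median depth, at 53016 reads per library. The part of depth in the DG level was not tested. The log2 difference of DG was -1.68 ± 0.41 (SE, limma adjusted p = 0.033). Without the 10F, 10M or 20F pool the adjusted p was 0.296, 0.0755 or 0.0601. The median log2 difference of all host genes in DG was -0.35. RIMS2 gave 14.4% ± 9.94 (SD, n = 28) of the summed RIMS1 and RIMS2 levels outside CB and 2.93% ± 1.27 (SD, n = 4) in CB.

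ERC2 was lower in CB. Its circRNAs were at 0 in CB_10F, CB_10M and CB_20M and at 5.43 TPM in CB_20F, from 5 reads. All other libraries were above these, at 33.5 to 534 TPM. The mean outside CB was 197 ± 134 TPM (SD, n = 28), 145-fold the CB mean of 1.36 ± 2.72 TPM (SD, n = 4). The log2 difference was -5.59 ± 0.56 (SE, limma adjusted p = 2.48e-08), and the exact permutation test on TPM gave p = 0.0080. The other 7 regions had means from 99.1 ± 63.3 TPM in OC to 261 ± 177 TPM in CA1, and none of them differed from its neighbour in the order by more than the larger SD. Of the forebrain excitatory neuron markers, 2 of the 6 tested were also lower in CB. The summed markers were low in DG too, at 28.8 to 141 TPM, where ERC2 averaged 236 ± 55.6 TPM (SD, n = 4). The part of cell composition in the ERC2 difference was not tested.

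ERC1 circRNAs were present in all 4 CB libraries, at 655, 409, 173 and 578 TPM. CB (454 ± 214 TPM), CA1 (446 ± 170 TPM) and DG (390 ± 134 TPM) formed the upper end of the order, and the step from DG to PC (174 ± 54.8 TPM) exceeded the larger SD. The log2 difference of CB was 1.11 ± 0.41 (SE, limma adjusted p = 0.120), and without the 20F pool or without the 5 libraries with over 95% clean reads it was called (adjusted p = 0.00382 and 0.0319). Of the summed ERC1 and ERC2 levels, ERC2 gave 46.1% ± 15.8 (SD, n = 28) outside CB, with a lowest library of 12.1%, and 0.762% ± 1.52 (SD, n = 4) in CB, with a highest library of 3.05%.

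PPFIA2 (liprin-α2) circRNAs were highest in DG, at 824 TPM in DG_10F, 400 in DG_10M, 211 in DG_20F and 167 in DG_20M. The other 28 libraries ranged from 3.8 to 284 TPM, and 2 of them were above the lowest DG library. The mean was 401 ± 300 TPM (SD, n = 4) in DG and 86.2 ± 62.4 TPM (SD, n = 28) outside DG, and the log2 difference was 2.32 ± 0.52 (SE, limma adjusted p = 0.0144). Leaving out the 10F, 10M, 20F or 20M pool gave adjusted p-values of 0.144, 0.0857, 0.0601 and 0.0562 with differences of 2.09 to 2.63. OC (26.1 ± 20.2 TPM) and CB (32.02 ± 5.93 TPM) were at the other end. Their log2 differences were -2.17 ± 0.52 (SE, limma adjusted p = 0.176) and -1.43 ± 0.52 (SE, limma adjusted p = 0.114).

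PCLO, the gene of Piccolo, was lowest in DG, at 28.6 ± 8.14 TPM (SD, n = 4), against 83.7 ± 50.5 TPM (SD, n = 28) elsewhere. The DG libraries held 6, 5, 10 and 40 PCLO reads, so the limit of depth given for RIMS2 holds here too. The log2 difference of PCLO in DG was -1.28 ± 0.45 (SE, limma adjusted p = 0.232). PC was the highest region at 116 ± 33.7 TPM. In CB the mean was 100 ± 58.5 TPM with CB_10F, which stood at 187 TPM from 10 reads, and 71.6 ± 10.9 TPM (SD, n = 3) without it.

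Of the priming and calcium-binding genes, MCTP1 was higher in CB. It was at 599 TPM in CB_10F, 237 in CB_10M, 209 in CB_20F and 378 in CB_20M, and at 0 to 240 TPM elsewhere, where CA1_10M was the 1 library above the lowest CB library. MCTP1 averaged 356 ± 178 TPM (SD, n = 4) in CB and 61.3 ± 59.8 TPM (SD, n = 28), and the log2 difference was 3.01 ± 0.71 (SE, limma adjusted p = 0.00753). Without CB_10F the mean was 275 ± 90.7 TPM and the adjusted p 0.0551. Without the whole 10F pool it was 0.137, and without 20M 0.109.

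UNC13C, whose protein Munc13-3 is best known from the cerebellum, was at 206 TPM in CB_10F, 27.1 in CB_10M, 19.6 in CB_20F and 8.79 in CB_20M. The value of CB_10F rested on 11 reads. Elsewhere it ranged from 0 to 33.03 TPM with 12 libraries at 0. The log2 difference of CB was 2.30 ± 0.74 (SE, limma adjusted p = 0.062, and 0.0491 with the pool as a block), and without CB_10F the CB mean fell from 65.3 ± 94.0 TPM (SD, n = 4) to 18.5 ± 9.18 TPM (SD, n = 3). SYT1 circRNAs came from both strands of the locus. They were listed at 0 in all 4 DG libraries and ranged from 0 to 35.6 TPM in the other 28, of which 20 were above 0. Their log2 difference in DG was -1.79 ± 0.76 (SE, limma adjusted p = 0.342). SYT1 had 348 reads outside DG. The table lists no value under 2 reads, so a single read in a library would be listed as 0, and DG had the lowest median depth of the regions, at 53016 reads per library.

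**Figure D2:**
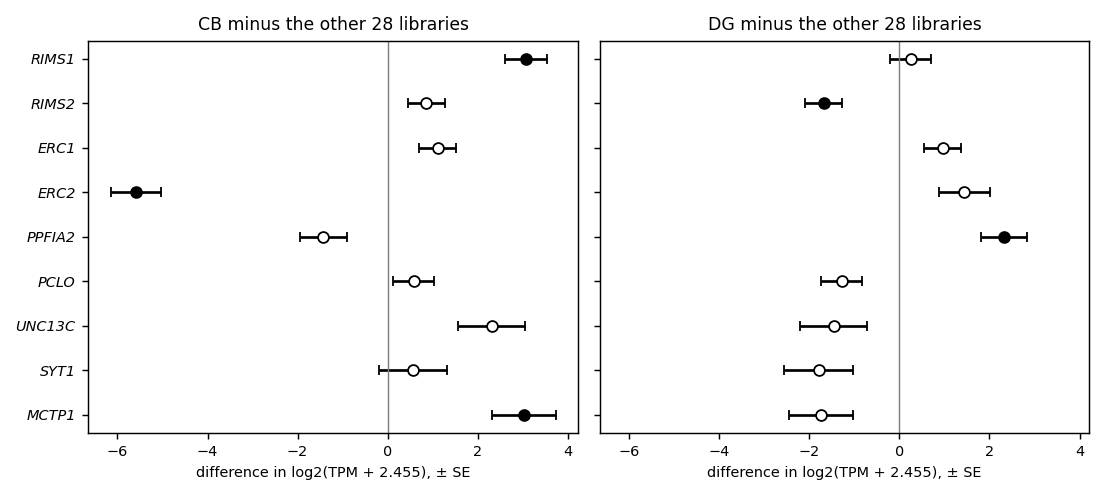
Difference in log2(TPM + 2.455) of summed circRNA levels, CB (left) and DG (right) minus the other 28 libraries, with its SE from limma, for the 9 genes. Filled points have an adjusted p under 0.05 over 4902 host genes. RIMS1 and MCTP1 lie at 3.07 and 3.01 and ERC2 at -5.59 in CB, and PPFIA2 at 2.32 and RIMS2 at -1.68 in DG.

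The same question was then asked of each circRNA. Of the 97 tested, 14 were higher in CB and 2 were lower, where 2.01% and 0.669% of all 17050 circRNAs tested were called in these directions. Of the 14, 5 passed the filter only through their CB reads, so that the filter itself favours a difference and they are described without a test. They were 2 from RIMS1, 2 from MCTP1 and 1 from UNC13C. Of the 91 member circRNAs that passed on the libraries outside CB alone, 9 were higher and 2 lower, where 1.41% and 0.695% of 16404 such circRNAs were called. The 9 were 6 of 16 from RIMS1, 1 of 9 from MCTP1, 1 of 2 from UNC13C and 1 of 17 from ERC1. Both lower ones were from ERC2. None of the 18 from RIMS2, 12 from PPFIA2, 5 from PCLO or 2 from SYT1 was called. Circles of a gene share splice ends and libraries and are not independent. The genes were chosen with earlier results of these data known, so counts beside these shares describe the members and do not test them as a set. In 6 of the 91 every CB library was above all 28 others, where the share over such circRNAs was 0.232% (8 of the 97, against 0.311% of all tested). In 1 of the 97 every CB library was below, against 0.0645%.

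**Figure D3:**
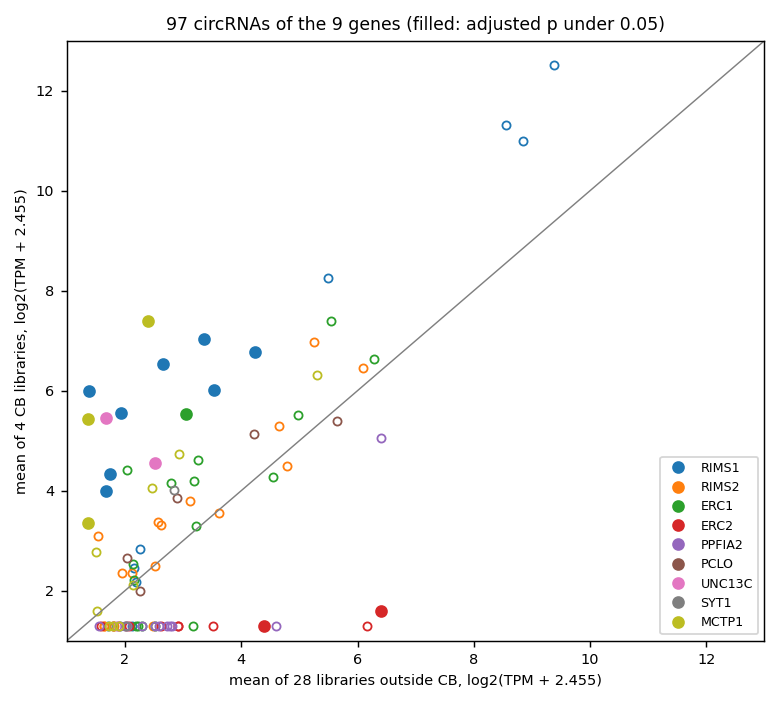
Mean level of the 97 tested circRNAs in the 4 CB libraries (vertical) against the 28 other libraries (horizontal), both as log2(TPM + 2.455), coloured by gene. Filled points have an adjusted p under 0.05, and 5 of those above the line passed the filter only through CB. The grey line marks equal levels. The filled RIMS1, MCTP1, UNC13C and ERC1 points lie above the line and the 2 filled ERC2 points below it, and 3 open RIMS1 points at the upper right are its most-read circles.

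The 5 circRNAs with the smallest p among those higher in CB came from RIMS1 and MCTP1, and the first and second described here passed the filter only through CB. RIMS1 chr4:68550028-68607531 was at 150, 36.1, 47.8 and 10.99 TPM in CB_10F, CB_10M, CB_20F and CB_20M, and outside CB only in OC_20F (2.85 TPM) and OC_20M (1.08 TPM). Of its 86 reads, 81 were from CB. MCTP1 chr6:91133100-91155536 was at 112, 19.5, 6.52 and 24.2 TPM in the 4 CB libraries and outside CB in OC_20M alone, at 3.24 TPM, with 36 of its 42 reads from CB. The intronic MCTP1 chr6:91498485-91505812 was at 337, 108, 68.4 and 145 TPM in CB and at 0 to 18.2 TPM elsewhere, with a log2 difference of 5.18 ± 0.54 (SE, limma adjusted p = 1.15e-07). RIMS1 chr4:68557893-68582219 averaged 90.0 ± 65.2 TPM (SD, n = 4) in CB and 3.84 ± 7.61 TPM (SD, n = 28) outside it, and RIMS1 chr4:68516970-68519480 averaged 17.8 ± 13.5 and 0.883 ± 2.88 TPM. These last 3 kept their call when CB_10F or any pool was left out.

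The RIMS1 circle with most reads, chr4:68575830-68582219, held 27026 reads, 44.9% of those of the gene, and 46.1% of them were from CB. It was at 5055 TPM in CB_10F, 5699 in CB_10M, 5588 in CB_20F and 7165 in CB_20M, and at 0 to 1510 TPM elsewhere. The groups did not overlap and the ratio of means was 8.80 (5876 ± 904 against 668 ± 417 TPM, SD). Its limma adjusted p was 0.0527 with a log2 difference of 3.804 ± 1.08 (SE), and it was listed at 0 in PCC_20F and TC_10F. In PCC_20F, the library with most reads, the neighbouring circle chr4:68575830-68607531 had 902 reads, and this second circle was in turn listed at 0 in PCC_10M and TC_10M. Whether these zeros are levels or missed calls was not tested. By the exact permutation test on TPM the first circle had p = 2.78e-05.

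The reads of RIMS1 lay in few of its circles. The 3 most-read circles held 91.8% of the reads of the gene, 91.5% in CB and 92.0% outside it. Of the 56 circles, 17 ended at 68607531 with 51.7% of the reads, and 4 started at 68575830 with 67.8%. A second start lies 23 bases before this one, at 68575807, and the annotation calls its circles intronic. The circle from this start to 68582219, for which primers are given above, was higher in CB at 129 ± 60.6 TPM (SD, n = 4) against 7.74 ± 12.7 TPM (SD, n = 28), and it kept this call in every alternative. Of the reads that joined 68582219 to either start, 301 used the upstream and 12465 the downstream start in CB (2.36% upstream, 1.1% to 3.19% per library), against 119 and 14561 elsewhere (0.811%, 0% to 4.04% per library). Of those that joined 68607531, 1.84% used the upstream start in CB and 3.22% elsewhere. The library ranges overlapped in both cases, and no test was made of these shares.

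**Figure D4:**
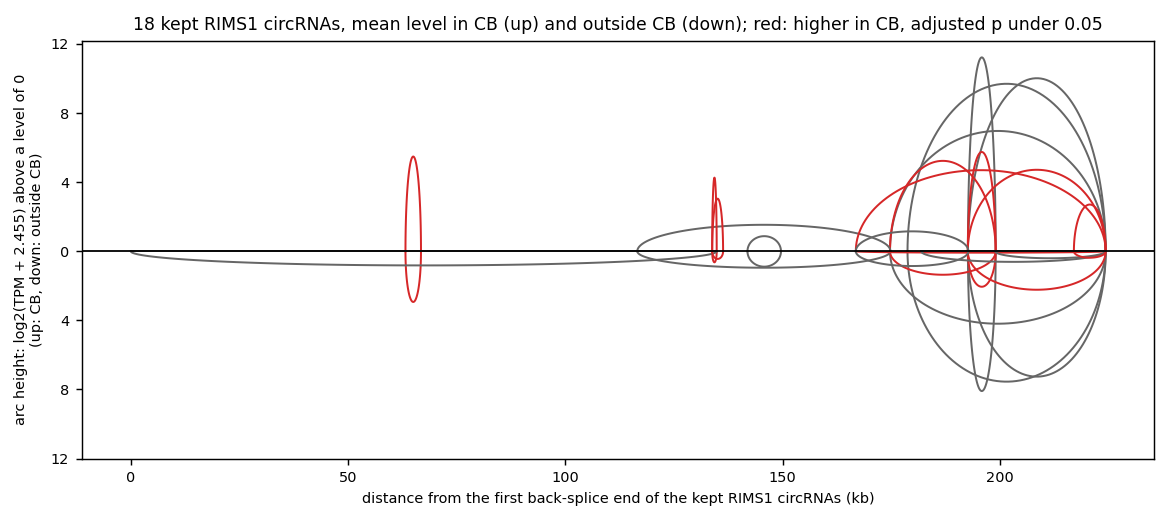
The 18 tested RIMS1 circRNAs as arcs from start to end, by distance (kb) from the first end drawn. The height is log2(TPM + 2.455) above a level of 0, for the mean of the 4 CB libraries upward and of the 28 others downward, and red arcs were higher in CB at an adjusted p under 0.05, of which 2 passed the filter only through CB. The tallest arcs crowd near the right, where the ends are shared, and reach higher for CB than for the other libraries.

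The most-read circle of ERC2, chr2:80422177-80484194, followed its gene. It had 2 reads in CB_20F (2.17 TPM), none in the other 3 CB libraries, and 6.21 to 254 TPM in the other 28. The log2 difference was -4.54 ± 0.47 (SE, limma), and the call held in every alternative. ERC2 chr2:80379862-80484194, which shares its end, was listed at 0 in all 4 CB libraries and had 441 reads elsewhere, in 18 of 28 libraries. It was also at 0 in all 4 libraries of PC and of OC, and it was higher in TC, at 15.7 TPM in TC_10F, 61.8 in TC_10M, 60.2 in TC_20F and 42.0 in TC_20M against 0 to 59.1 TPM elsewhere. The log2 difference of TC was 2.52 ± 0.52 (SE, limma adjusted p = 0.0311), and without the 10M, 20F or 20M pool the adjusted p was 0.375, 0.0787 or 0.269. This was the 1 member circRNA called in a region other than CB, where 0.188% of all circRNAs tested were higher in TC. In CB its adjusted p was 0.0642, 0.234 and 0.164 without 10F, 10M and 20M. All ERC2 circles together were at 243 ± 121 TPM in PC and 99.1 ± 63.3 TPM in OC.

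The most-read circles of the other genes follow, with ERC1 first. ERC1 chr11:1305143-1399597 was at 97.1 ± 138 TPM in CB and 75.3 ± 59.2 TPM elsewhere, and was 8.92% of ERC1 reads in CB against 34.4% elsewhere. Without CB_10F, where it had 16 reads, its CB mean was 29.6 ± 36.5 TPM (SD, n = 3), below the mean elsewhere. A short ERC1 circle with the same start, chr11:1305143-1305303, was higher in CB (43.9 ± 34.4 against 5.77 ± 15.97 TPM, adjusted p = 0.00259 by limma, 0.0706 without 20M), and was named after its values were seen. ERC1 chr11:1141773-1191816 was at 48.0 ± 29.4 TPM in CA1 and 16.5 ± 21.8 TPM elsewhere, with a log2 difference of 2.09 ± 0.86 (SE, limma adjusted p = 0.543). RIMS2 chr8:106595594-106652275 was at 84.6 ± 44.4 TPM in CB and 66.0 ± 52.0 TPM elsewhere, and RIMS2 chr8:106570481-106652275 at 36.8 ± 43.7 and 22.6 ± 25.2 TPM. Their CB means without CB_10F were 62.8 ± 11.3 and 49.1 ± 44.2 TPM (SD, n = 3). The intronic PCLO chr3:134357149-134394391 was at 39.5 ± 23.7 and 47.8 ± 37.3 TPM, and MCTP1 chr6:91112328-91136969 at 76.7 ± 49.3 and 37.1 ± 38.4 TPM. For these the CB means without CB_10F were 27.7 ± 3.51 and 52.3 ± 9.04 TPM (SD, n = 3). UNC13C chr7:32625044-32641865 was called higher in CB, at 56.2 TPM in CB_10F from 3 reads and 4.51, 14.1 and 8.79 TPM in the others, against 0 to 17.5 TPM elsewhere. Its adjusted p went from 0.0289 to 0.243 without CB_10F, and to 0.279 and 0.123 without the 20F and 20M pools.

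PPFIA2 chr11:78405303-78425565 was at 692, 286, 162 and 99.3 TPM in DG_10F, DG_10M, DG_20F and DG_20M, and next in CA1 at 89.9 to 218 TPM. Its log2 difference in DG was 3.32 ± 0.77 (SE, limma adjusted p = 0.0678). This circle made up 71.4% of PPFIA2 reads in DG, 91.8% in CB and 45.4% outside CB. The share in CB rested on 56 of 61 reads, and a circle with under 2 reads in a library is listed as 0. To ask whether a region shifts between circles of a gene rather than its whole output, the log2 ratio of the most-read circle to the sum of the others was compared. None of the 9 genes was called in any region by limma, where 0.182% of 2751 genes were lower in CB and 0.0364% lower in PCC or higher in TC. At an unadjusted p under 0.05 there were 4 of the 9 in CB, against 9.67% of all genes tested. PPFIA2 had the smallest adjusted p, with a log2 difference of 3.68 ± 0.91 in CB (SE, limma adjusted p = 0.0871), from its 61 reads there. ERC1 and MCTP1 had -2.29 ± 0.87 and -2.72 ± 1.14 (SE, limma adjusted p = 0.366 and 0.434).

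In PFC, PCC, TC, PC, OC and CA1 no member gene was called by limma. Of all host genes 0.163% were higher and 0.0612% lower in PFC, 0.0204% and 0.0408% in PCC, 0.122% and 0.122% in TC, 0.0408% and 0% in PC, 0.0204% and 0% in OC, and 0.102% and 0.102% in CA1. At an unadjusted p under 0.05 there were 3 of 9 in PFC against 7.34% of all host genes, 2 in CA1 against 7.20%, 1 in PC against 8.89% and 1 in OC against 4.16%, and none in PCC or TC against 7.18% and 7.36%. At the circRNA level none of the 97 was called in PFC, PCC, PC, OC, CA1 or DG, and in TC none was lower (0.0293% of all). Of all circRNAs tested 0.135% were higher and 0.0293% lower in PFC, 0.088% and 0.0117% in PCC, 0.37% and 0.0176% in PC, 0.182% and 0.0176% in OC, 0.0704% and 0.0176% in CA1, and 0.0821% and 0.117% in DG. At an unadjusted p under 0.05 there were 9 of the 97 in PFC (8.36% of all), 8 in PCC (8.86%), 5 in TC (5.33%), 14 in PC (10.4%), 4 in OC (4.24%), 10 in CA1 (8.70%) and 14 in DG (6.04%). By the exact test at p under 0.01 there was 1 higher in each of TC, PC, CA1 and DG, and 17 in CB. Of all circRNAs tested 3.2% were higher in CB by this test, 1.04% in TC, 1.28% in PC, 0.733% in CA1 and 0.534% in DG. The counts in CB include circRNAs that passed the filter only through CB, 6 of the 97 and 646 of 17050, where the filter itself favours a difference.

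The age comparison set the 16 libraries of 20-year-old against the 16 of 10-year-old animals, with region and sex in the model. No member circRNA or gene was called by limma, where 4 of 17050 circRNAs (0.0235%) were higher and 1 (0.00587%) lower at 20 y. At an unadjusted p under 0.05 there were 7 of the 97 circRNAs, against 5.26% of all, and 1 of the 9 genes, against 6.34% of all. SYT1 was that gene, at 5.21 ± 8.28 TPM at 20 y and 13.4 ± 12.97 TPM at 10 y (SD, n = 16 libraries each), a log2 difference of -1.06 ± 0.46 (SE, limma adjusted p = 0.701). PPFIA2 was lower at 20 y in 13 of 16 pairs of libraries of the same region and sex, at 82.5 ± 55.3 against 168 ± 203 TPM, with a log2 difference of -0.59 ± 0.33 (SE, limma adjusted p = 0.819). The libraries of a pool come from the same 2 animals, so p-values over libraries are too small, and 2 pools against 2 cannot reach p under 0.05 in an exact test. The depth was not equal either, with a median of 128018 reads at 10 y and 192168 at 20 y.

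The SYT1 circle chr11:76309507-76323514 was above 0 in 10 of 16 libraries at 10 y and in 3 of 16 at 20 y. Its mean was 17.1 TPM over the 10M libraries, 3.11 over 10F, 2.67 over 20M and 0.544 over 20F. The values of the 10M pool reached 34.6 TPM in CB_10M, 32.7 in CA1_10M, 29.0 in PC_10M and 17.7 in PCC_10M. The log2 difference was -1.26 ± 0.39 (SE, limma adjusted p = 0.709). The study's methods use an unpaired parametric two-sample test with no adjustment, which its section on statistics calls paired. The study also reports a permutation test whose age calls largely overlapped with these. The unpaired two-sample test was run here on the deposited TPM. Over 16 against 16 libraries it called 2 of the 97 lower at 20 y, this one and PPFIA2 chr11:78261705-78307297, and none higher, where 1.45% of all circRNAs tested were lower and 1.52% higher. That PPFIA2 circle was above 0 in 12 of 16 libraries at 10 y and 6 of 16 at 20 y, with a log2 difference of -1.53 ± 0.46 (SE, limma adjusted p = 0.637).

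**Figure D5:**
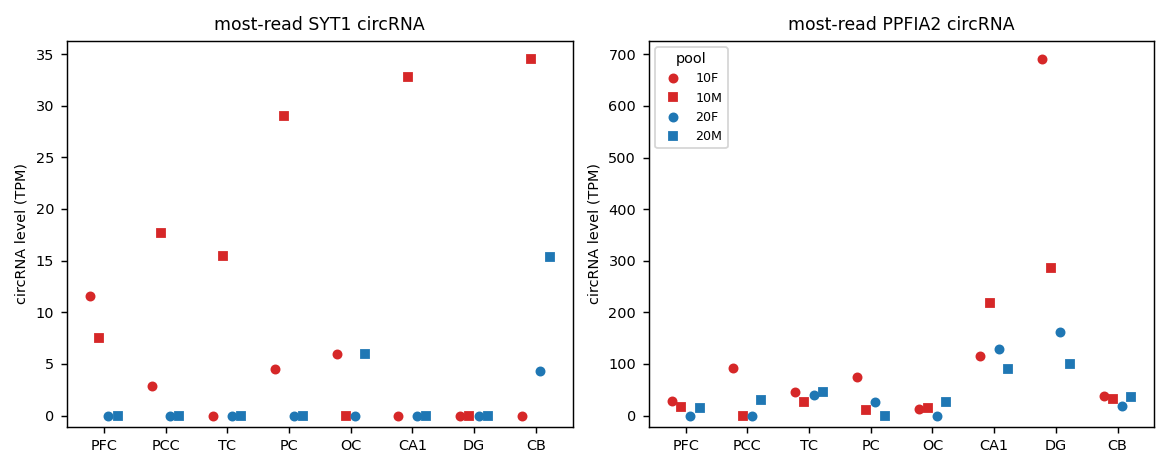
Level (TPM, linear axes) of the most-read SYT1 circRNA (left) and PPFIA2 circRNA (right) in each library, by region. Red marks 10 y, blue 20 y, circles females and squares males. For SYT1 the highest points are 10M libraries, up to 34.6 TPM, and at 20 y only OC_20M, CB_20F and CB_20M are above 0. For PPFIA2 the DG libraries run from 99.3 to 692 TPM.

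Between sexes no member was called by limma, and neither was any other circRNA or host gene (0%). At an unadjusted p under 0.05 there were 5 of the 97 circRNAs, against 5.31% of all, and none of the 9 genes, against 6.71% of all. The largest gene difference was that of SYT1, at 11.99 ± 12.3 TPM in males and 6.63 ± 10.2 TPM in females (SD, n = 16 each), a log2 difference of 0.66 ± 0.46 (SE, limma adjusted p = 0.879). The same unadjusted two-sample test called 3 circRNAs higher in males and none lower, where 1.78% and 1.17% of all circRNAs tested were called. These were ERC1 chr11:1185101-1191816, RIMS2 chr8:106199368-106199578 and SYT1 chr11:76309507-76323514, with limma adjusted p-values of 0.813 each.

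Of 65 other genes of the active zone and release machinery listed for comparison, 53 had a circRNA and 39 could be tested. In CB 2 were higher and 1 was lower at the gene level, and in DG 1 was lower. Of all host genes 2.92% were higher and 2.61% lower in CB, and 0.796% were lower in DG. CADPS2, the paralog of CADPS and like it a priming factor, was at 422 ± 182 TPM (SD, n = 4) in CB and 35.2 ± 28.8 TPM (SD, n = 28) elsewhere, with no overlap (242 to 674 against 0 to 119 TPM, as for 0.612% of all host genes) and a log2 difference of 3.95 ± 0.66 (SE, limma adjusted p = 0.000117). CACNA1A, the pore subunit of the P/Q-type calcium channel that RIM proteins bind, was at 3344 ± 1058 against 966 ± 509 TPM, a log2 difference of 2.04 ± 0.56 (SE, limma adjusted p = 0.024). RIMBP2, the RIM-binding protein 2, was listed at 0 in all 4 CB libraries and had 1357 reads elsewhere, in 26 of 28 libraries. Its log2 difference was -3.91 ± 0.75 (SE, limma adjusted p = 0.000876). The median log2 difference of the 39 genes in CB was 0.22, and that of all host genes -0.07. The gene lower in DG was again CADPS2, at 5.46 ± 6.68 TPM (SD, n = 4) against 94.7 ± 151 TPM (SD, n = 28), with a log2 difference of -3.06 ± 0.66 (SE, limma adjusted p = 0.0117). These 28 libraries include the 4 of CB, where CADPS2 averaged 422 TPM. None of the 39 was called in another region, by age or by sex.

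The host genes whose summed levels ran most like a member over the 32 libraries were found by Spearman's rho among 1444 host genes above 0 in at least 24 libraries. These values share depth and library and are a description. RIMS1 ran with a gene listed as ENSMMUG00000007349 (rho = 0.86) and with PDIA6 (0.73), RIMS2 by NCOA5 (0.77), PPFIA1 (0.77) and ENSMMUG00000012617 (0.75), and ERC1 by ZFPM2 (0.81), SAFB (0.73) and RIMS1 itself (0.73). For ERC2 the values were lower, with SNTG1 (0.69), NPAS3 (0.68) and CHN1 (0.66), of which CHN1 was also at 0 in CB. PPFIA2 ran with DPYD (0.77), PRSS12 (0.73) and COL11A1 (0.72), of which PRSS12 was listed at 0 in CB. PCLO ran with PPFIA1 (0.78), a gene listed as ENSMMUG00000022614 (0.71) and RAB3IP (0.69), UNC13C with NDUFA10 (0.64), PPP4R1 (0.59) and PRKCZ (0.59), SYT1 with WDR1 (0.68), SETD3 (0.68) and MPHOSPH9 (0.65), and MCTP1 with VPRBP (0.71), AGTPBP1 (0.66) and SLC12A2 (0.64).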

How the data were processed

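Levels came from the deposited table of 52828 circRNAs in 32 libraries, in TPM. Before deposit the authors trimmed reads (cutadapt), mapped them (BWA) and called circRNAs with at least 2 junction reads (CIRI2). The methods state DESeq size-factor scaling, which the table's unit does not name. In every library the deposited TPM were whole multiples of the value of 1 read (largest deviation 0.0186 reads), and reads were recovered so. Depth was 18813 to 894932 reads. Identical columns were not found.

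The circRNAs, host gene sums and isoform ratios were fitted with limma 3.58.1 (R 4.3.3) on log2(TPM + 2.455), the pseudocount being the median smallest value above 0. Fold changes on this scale understate those of low circRNAs. The study's filter on reads kept 17050 circRNAs, 16404 of them on the libraries outside CB alone. A region was set against the mean of the other 7, and age and sex were fitted with region. P-values were adjusted by Benjamini and Hochberg. Exact permutation tests ran over choices of 4 of 32 libraries, without keeping the pools paired across regions (SciPy 1.17.1, NumPy 2.4.6, pandas 2.3.3, Matplotlib 3.10.9, Python 3.11.15). Pools pair libraries across regions because they hold the same animals. Deviations of same-pool libraries correlated at a median of 0.036 over 112 pairs, against -0.011 for other pairs. In simulated data of 17050 circRNAs the test of CB found 12 of 100 changed 4-fold and 58 of 100 changed 8-fold. It also called 12 unchanged ones, so in this run a larger share of calls than 0.05 was false. The test of age found 36 of 100 changed 4-fold and 90 of 100 changed 8-fold, and called 1 unchanged one. The simulated reads were negative binomial with the same dispersion for all circRNAs, no missed calls and no effect shared by a pool. The changed circRNAs were drawn from those above the median level. These figures therefore need not hold for the real data.

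Named were the 10 genes with their sums, the most-read circRNA of each, those in the study's primer list, up to 5 per contrast and direction with the smallest p among those called, called genes of the release list, and the 3 host genes most like each member. Some genes that these rules name are not reported here. The members and lists were chosen with earlier results of these data known. Genome build: not given in the sources used here.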

Additional observations from a re-analysis of the deposited data

Results flagged for a closer look

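In 12 of 71 groups of 4 libraries of a region, the gene sum of 1 library stood apart from the other 3 by Dixon's test. In 3 of the 12 (ERC2 in CB_20F, UNC13C in PFC_10M and in DG_20M) the other 3 libraries were at 0, so the test passes whatever the value. Chance flags about 1 in 20 groups, to be set beside the other 9. ERC2 was at 534 TPM in PCC_10M (181 reads) against 65.6 to 131 TPM in the other PCC libraries, at 423 TPM in PC_10M (701 reads) against 173 to 202 TPM, and at 5.43 TPM in CB_20F (5 reads) against 0. PCLO was at 187 TPM in CB_10F (10 reads) against 59.7 to 81.3 TPM. UNC13C was at 206 TPM in CB_10F (11 reads) against 8.79 to 27.1 TPM, at 33.03 TPM in TC_20F against 8.70 to 10.3 TPM, at 18.3 TPM in OC_10F against 0 to 1.08 TPM, and at 4.61 TPM in PFC_10M (8 reads) and 8.78 TPM in DG_20M (10 reads) against 0. MCTP1 was at 180.94 TPM in PFC_20F (222 reads) against 22.7 to 48.0 TPM, at 92.0 TPM in TC_20F against 7.25 to 17.3 TPM, and at 182 TPM in DG_10M (40 reads) against 0 to 18.1 TPM.

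The 2 circRNAs listed under the gene ID of CADPS alone, which enter none of the comparisons, held 182 reads. CADPS chr2:73710182-73733664 had 149 reads and chr2:73710182-73721735 had 33. Their sum ranged from 0 to 29.3 TPM, with the highest values in CA1_20F (29.3 TPM) and CA1_10M (21.8 TPM) and at 2.40 ± 3.14 TPM (SD, n = 4) in CB.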

How the results depend on the processing

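Of the member circRNAs, 14 were higher and 2 lower in CB. With a pool left out these counts were 9 to 13 and 1 to 2, and without CB_10F alone (chosen after seeing the data) they were 14 and 2. The filter on libraries outside CB (also chosen after seeing the data) gave 9 higher. Only circRNAs above 0 in 16 libraries gave 7 higher, voom on recovered reads 1 lower, and the exact test 0 lower. Of the genes, 2 were higher in CB, 1 with a pseudocount of 0.2455 TPM or without CB_10F, and 1 to 4 without a pool. The 1 lower gene became 2 with equal library totals. In the other regions 1 circRNA was higher (0 with a pseudocount of 0.2455 TPM, 3 with equal totals, 3 with size factors, 2 without the 5 libraries over 95% clean, 2 with the pool as block, 4 by the exact test, 0 to 3 without a pool). None was lower there, but 3 with a pseudocount of 0.2455 TPM, 1 with a pseudocount of 1 TPM, 1 with equal totals, 1 with size factors, 2 without the 5 libraries, 40 with voom, 1 above 0 in 16 libraries, and 0 to 2 without a pool. By voom 6006 of all 17050 circRNAs tested were lower in PC and 342 in PFC, so the 40 are no result about these genes. In these regions 1 gene was higher (0 with a pseudocount of 0.2455 TPM, 3 with voom, 0 without any 1 pool and 1 without CB_10F) and 1 lower (0 with a pseudocount of 0.2455 TPM, 0 with 1 TPM, 0 to 1 without a pool). Equal counts need not be the same features. With voom, 1 of the 4 genes and 0 of the 41 circRNAs called in these regions were main calls. PPFIA2 in DG lost its call in 5 of 13 alternatives and RIMS2 in 6. Summing only kept circRNAs called 1 isoform balance in CB. The study's unadjusted two-sample test called 2 circRNAs lower at 20 years and 3 higher in males. The cause of these changes was not tested.

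RIMS1 and ERC2 kept their calls in CB in every alternative. Of the values for single genes and circRNAs, 303 kept direction and side of the threshold, 61 lost and 6 gained the call, and none reversed. The pool as replicate block called UNC13C in CB (adjusted p = 0.0491), and gave 2 circRNAs in other regions. Depth limits the reading of CB_10F most.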
